A study of Mus musculus with 50 samples.

Results

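Gpr50, Esx1, Ldoc1 and Dmrtc1b are 4 genes of the mouse X chromosome whose RNA was lower in differentiated embryonic stem (ES) cells that had lost Repeat B of Xist than in wild-type cells, although reads from the 129 X chromosome became more common in the mutants. They were taken by name, as 4 of the 24391 genes in the count tables and 4 of the 1063 genes that the tables place on chromosome X. They were selected on counts of all reads scaled to library size (CPM) in both mutant genotypes against wild type, so their differences from wild type are given as a description and no p-value is attached to them. All 4 passed the filter on low counts, as did 562 of the X-linked genes.

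The ES cells were of the hybrid background CAST/Ei x 129/Sv/Jae, which allows a read over a strain variant to be given to the CAST or the 129 chromosome. They were wild type (WT ES), Repeat B +/- (RepB+/- ES) or Repeat B -/- (RepB-/- ES), with 2 libraries per genotype. The labels do not say on which allele RepB+/- cells lack the repeat, how many clones each genotype stands for, or that replicates are separate cultures, so a p-value here measures a spread between libraries that may be technical. Cells of all 3 genotypes spent 3 days with irradiated fibroblast feeders, were freed of them, formed embryoid bodies in suspension for 4 days and then differentiated on gelatin for 10 days, so an ES library may hold several cell types. Mouse embryonic fibroblasts (MEF) of the same hybrid background gave 1 wild-type library and 1 library labelled as having lost Repeat B, with no word on 1 or both alleles. The other 42 of the 50 samples were not analysed here. ES libraries held between 8000722 and 28045645 counts and MEF libraries 12126941 and 18631736, and 26.7% to 27.99% of the counts carried an allele. RepB+/- replicate 2 was the shallowest. Xist itself had between 808.2 and 1148.2 CPM in the 6 ES libraries, a level summed over all its exons that cannot show whether the repeat is gone. It was read mainly from the 129 chromosome in every ES library.

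In female mammals the long non-coding RNA Xist coats the X chromosome it is made from and silences most of its genes, and its Repeat B is known for bringing Polycomb repressive complexes to that chromosome. A gene on the coated chromosome is therefore read mainly from the other copy, and loss of silencing would add reads from the coated copy. Gpr50 encodes an orphan receptor of the melatonin receptor family that does not bind melatonin and is best known from tanycytes of the hypothalamus. Esx1 encodes a paired-like homeodomain protein of placenta and male germ line, and mice without it have a defective placental labyrinth. Ldoc1 encodes a small protein derived from the Gag gene of a sushi-ichi retrotransposon and regulates placental hormone production in mice. Dmrtc1b belongs to the family of doublesex and mab-3 related genes, whose founding mammalian member, Dmrt1, acts in the testis.

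The start regions of 3 of the genes are printed here as a description. All were chosen for lower reads in both mutant genotypes, so their moving together in these libraries follows from the choice. Each window runs from 250 bases before to 50 bases after the RefSeq start on build GRCm38.p6, 5′ to 3′ on the strand of the gene, with CG dinucleotides in capitals. The Gpr50 window is chrX:71663417-71663716 on the plus strand, the Esx1 window is chrX:137120277-137120576 on the minus strand, and the Ldoc1 window is chrX:61709361-61709660 on the plus strand.
Gpr50: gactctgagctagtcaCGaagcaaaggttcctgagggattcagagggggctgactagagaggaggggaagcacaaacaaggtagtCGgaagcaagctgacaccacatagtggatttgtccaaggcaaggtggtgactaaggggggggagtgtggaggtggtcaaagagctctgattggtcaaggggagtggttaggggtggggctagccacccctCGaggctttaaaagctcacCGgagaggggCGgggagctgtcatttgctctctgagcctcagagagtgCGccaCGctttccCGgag
Esx1: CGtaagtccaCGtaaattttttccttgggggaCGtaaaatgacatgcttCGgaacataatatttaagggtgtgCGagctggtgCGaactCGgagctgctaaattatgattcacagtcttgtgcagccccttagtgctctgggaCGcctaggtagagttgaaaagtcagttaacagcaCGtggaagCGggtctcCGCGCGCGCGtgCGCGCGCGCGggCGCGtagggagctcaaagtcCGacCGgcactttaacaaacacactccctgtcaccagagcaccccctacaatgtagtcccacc
Ldoc1: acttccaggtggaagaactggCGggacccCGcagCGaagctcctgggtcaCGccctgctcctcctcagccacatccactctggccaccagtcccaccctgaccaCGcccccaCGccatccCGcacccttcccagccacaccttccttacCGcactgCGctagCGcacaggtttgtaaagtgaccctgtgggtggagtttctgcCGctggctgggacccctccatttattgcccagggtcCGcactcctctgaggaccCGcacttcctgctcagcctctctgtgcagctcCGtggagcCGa
The Esx1 window held 24 CG dinucleotides, a count reached or passed by 20.0% of 32851 promoters in the RefSeq table, much of it in a run of alternating C and G. The Ldoc1 window held 15 (reached or passed by 34.6%) and the Gpr50 window 8 (48.6%), beside a median of 7.0. The words searched on both strands were the TATA box TATAAA, the GATA word TGATAA and the AP-2 word GCCNNNGGC, which reads the same on both strands. They occur in 13.6%, 9.05% and 16.6% of the promoters. The Ldoc1 window held 1 AP-2 match, and no other match lay in the windows of the 4 genes. A match is a description of letters and not a binding site.

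Dmrtc1b has a neighbour with a near-identical start region, Dmrtc1a, and both regions are printed because reads of these 2 genes may not be separable. Identity over the counted exons was not examined. The RefSeq windows of the pair align without a gap over 272 bases, of which 267 are identical (98.2%). The Dmrtc1b stretch is chrX:102707631-102707902 on the plus strand and the Dmrtc1a stretch is chrX:102908638-102908909 on the minus strand (GRCm38.p6). Capitals mark the 5 differences.
Dmrtc1b: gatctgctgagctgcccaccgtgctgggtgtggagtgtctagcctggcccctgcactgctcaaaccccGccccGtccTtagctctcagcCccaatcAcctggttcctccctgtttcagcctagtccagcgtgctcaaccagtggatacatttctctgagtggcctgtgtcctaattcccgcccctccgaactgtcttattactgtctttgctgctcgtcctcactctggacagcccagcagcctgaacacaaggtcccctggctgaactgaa
Dmrtc1a: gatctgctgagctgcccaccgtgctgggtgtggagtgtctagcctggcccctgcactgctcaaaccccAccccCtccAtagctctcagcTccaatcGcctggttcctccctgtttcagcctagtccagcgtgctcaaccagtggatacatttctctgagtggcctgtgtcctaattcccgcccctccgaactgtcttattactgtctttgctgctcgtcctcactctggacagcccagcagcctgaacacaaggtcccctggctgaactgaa
Counted from 1 at the 5′ end of the stretch and with the Dmrtc1b base first, the differences are G69A, G74C, T78A, C90T and A97G. The full window of Dmrtc1b held 9 CG dinucleotides (reached or passed by 45.8% of promoters), and RefSeq lists a further start for this gene.

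Gpr50, for which the count table gives an exon at chrX:68916842-68917177 on the plus strand (build mm9) and 3069 bases of exon, was lower in both mutant genotypes than in wild type. It had 57.1 and 53.5 CPM in WT ES replicates 1 and 2, 19.9 and 12.8 CPM in RepB+/-, and 19.2 and 15.6 CPM in RepB-/-. Every mutant library lay below both wild-type libraries, and the mutant genotypes overlapped each other. Wild type averaged 55.3 ± 2.53 CPM (SD, n = 2), RepB+/- 16.3 ± 5.03 and RepB-/- 17.4 ± 2.59. The edgeR fit across all genes gave log2 fold changes of -1.69 (SE 0.17) for RepB+/- and -1.66 (SE 0.16) for RepB-/-, levels 3.24 and 3.17 times lower than wild type. In bulk RNA, fewer cells of a type and less RNA per cell cannot be told apart, here and for the genes that follow.

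Esx1, with an exon at chrX:133649936-133650544 on the minus strand (mm9) and 1600 bases of exon, was also lower in both mutant genotypes than in wild type. Its level was 15.5 and 17.9 CPM in wild type, 6.04 and 5.55 CPM in RepB+/-, and 5.11 and 4.57 CPM in RepB-/-. Every mutant library lay below both wild-type libraries, and the difference between the 2 mutant genotypes, tested below, was not called. The means were 16.7 ± 1.7 CPM (SD, n = 2), 5.8 ± 0.34 and 4.84 ± 0.38 in that order. Its log2 fold changes were -1.5 (SE 0.19) for RepB+/- and -1.77 (SE 0.18) for RepB-/-, or 2.83 and 3.42 times lower than wild type.

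Ldoc1, with its exon at chrX:58962791-58964125 on the plus strand (mm9) and 1335 bases of exon, was the most abundant of the 4 genes per length. It had 70.9 and 64.9 CPM in wild type, 33.8 and 32.3 CPM in RepB+/-, and 42 and 27 CPM in RepB-/-. Mutant libraries were again below both wild-type libraries, and the 2 RepB-/- libraries enclosed the RepB+/- values. The means were 67.9 ± 4.22 CPM (SD, n = 2), 33.1 ± 1.08 and 34.5 ± 10.6. Its log2 fold change of -1.03 (SE 0.16) in RepB+/- and -0.97 (SE 0.16) in RepB-/- corresponds to a level 2.05 and 1.96 times lower.

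Dmrtc1b, with an exon at chrX:99903220-99903265 on the plus strand (mm9) and 1184 bases of exon, was the scarcest gene and the least precise. It had 5.26 and 4.24 CPM in wild type (102 and 50 reads), 2.25 and 1.94 CPM in RepB+/- (64 and 15 reads), and 1.9 and 1.19 CPM in RepB-/- (55 and 26 reads). The mutant libraries lay below both wild-type libraries, and the difference between the 2 mutant genotypes, tested below, was not called. The means were 4.75 ± 0.725 CPM (SD, n = 2), 2.09 ± 0.218 and 1.54 ± 0.502, and the log2 fold changes were -1.16 (SE 0.31) for RepB+/- and -1.61 (SE 0.3) for RepB-/-. These folds correspond to levels 2.23 and 3.05 times lower. How the counting treated reads that map to more than 1 place is not given in the sources used here, so the split of reads between Dmrtc1b and Dmrtc1a is uncertain. In ES libraries 48.0% to 61.8% of Dmrtc1b reads could be given to an allele, against 0.0% to 5.97% of Dmrtc1a reads.

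**Figure D1:**
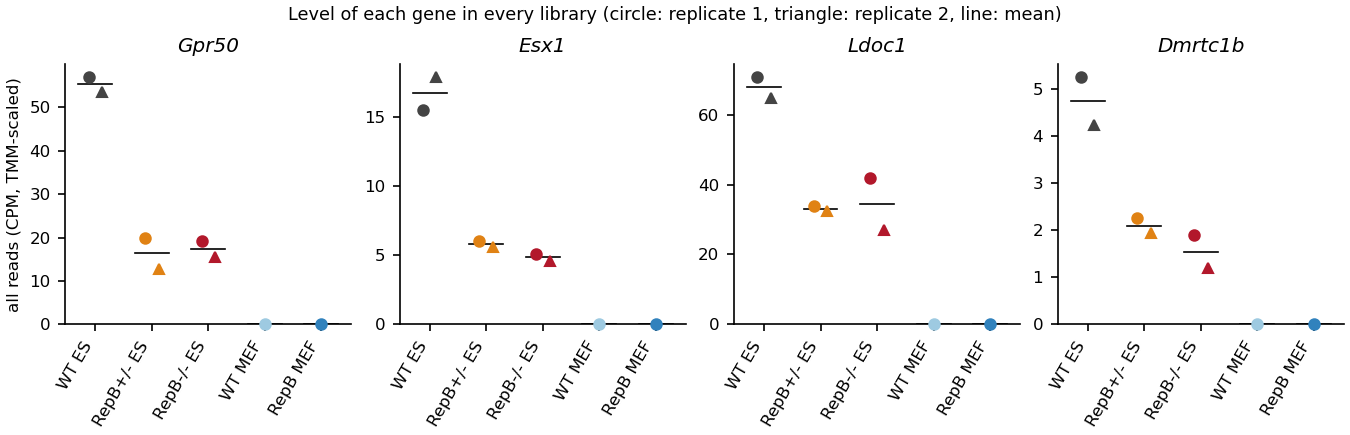
Level of Gpr50, Esx1, Ldoc1 and Dmrtc1b in CPM (vertical axis) in each of the 8 RNA-seq libraries, by group; circles are replicate 1, triangles replicate 2 and lines group means. Every RepB ES library lies below both WT ES libraries, and the MEF libraries lie at or next to 0.

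Per kilobase of exon, the scale on which levels of different genes can be set side by side, wild-type ES cells had 50.9 CPM per kb of Ldoc1, 18 of Gpr50, 10.4 of Esx1 and 4.01 of Dmrtc1b. In RepB+/- the levels were 24.8, 5.33, 3.62 and 1.77 CPM per kb in the same order of genes, and in RepB-/- they were 25.8, 5.67, 3.02 and 1.3. The order of the 4 genes was the same in the 3 genotypes.

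Both comparisons share the wild-type libraries, so they are not independent of each other. For all 4 genes both libraries of each mutant genotype lay below both wild-type libraries, as they did for 28.0% (RepB+/-) and 27.9% (RepB-/-) of all 15149 genes tested and for 12.8% and 12.6% of the X-linked ones. At an edgeR adjusted p of 0.05, 6.84% of all genes tested were called lower in RepB+/- and 5.49% in RepB-/-, and 9.12% and 7.27% were called higher. The counts called lower, 1036 and 832, changed by more than 1.5 times without WT replicate 1 (503 and 448), without WT replicate 2 (271 and 247), in RepB+/- without its replicate 1 (641), and in RepB-/- without its replicate 1 (387) or 2 (339). Under upper-quartile scaling the split of calls moved from 1382 higher and 1036 lower to 1735 and 747 in RepB+/-, and from 1101 and 832 to 1316 and 686 in RepB-/-. Among X-linked genes 25 (4.45%) were called lower in RepB+/- and 29 (5.16%) in RepB-/-, against 188 (33.5%) and 177 (31.5%) called higher. Leaving out a library changed the first count by more than 1.5 times for WT replicate 1 (10 genes) and WT replicate 2 (12), and the second for WT replicate 1 (10), WT replicate 2 (9), RepB-/- replicate 1 (17) and RepB-/- replicate 2 (11). The median log2 fold change over X-linked genes was 0.37 in RepB+/- and 0.36 in RepB-/-, while over all genes it was 0.02 and 0.01.

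Ordered by log2 fold change among the 562 tested X-linked genes, Gpr50 was the second lowest in both comparisons, Esx1 stood at rank 3 in RepB+/- and 1 in RepB-/-, Dmrtc1b at 6 and 3, and Ldoc1 at 9 and 12. X-linked genes called lower that stood near them but are not members included Rhox4g, a homeobox gene (-2.1 in RepB+/- and -1.59 in RepB-/-), Vgll1, a partner of TEAD transcription factors (-1.46 and -1.52), and AU015836 (-1.05 and -1.19). Vgll1 was named after its values were seen. Ldoc1 therefore had no gap in fold change from the genes that were not chosen: Dmrtc1a stood at -1.01 and -0.93.

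Reads that could be given to an allele split the change between the chromosomes. In wild-type cells the 4 genes were read mostly from CAST, and in the mutants CAST reads were fewer while 129 reads stayed few. Gpr50 had 2 129 reads and 93 CAST reads in WT replicate 1 and 1 and 51 in replicate 2. In RepB+/- the 129 and CAST reads were 14 and 38 in replicate 1 and 2 and 12 in replicate 2, and in RepB-/- they were 7 and 29 and then 5 and 31. Of the Gpr50 reads of an ES library, only 6.45% to 14.1% could be given to an allele. Among these the CAST level was high in both wild-type libraries and low in every mutant library. Its mean was 4.56 CPM for wild type, 1.44 for RepB+/- and 1.21 for RepB-/-, while the 129 means were 0.094, 0.375 and 0.235 CPM. Pooled over the 2 libraries, the 129 share of Gpr50 was 2.04% in wild type (95% Clopper-Pearson interval 0.423 to 5.85), 24.2% in RepB+/- (14.5 to 36.4) and 16.7% in RepB-/- (8.92 to 27.3). These intervals, like the others of 129 shares, cover counting error only.

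Of the Esx1 reads of an ES library, 39.8% to 59.0% could be given to an allele. The 129 and CAST reads were 6 and 127 in WT replicate 1, and 8 and 76 in WT replicate 2. They were 23 and 47 and then 7 and 15 in the RepB+/- libraries, and 16 and 45 and then 15 and 44 in the RepB-/- libraries. CAST reads were thus the majority in each of the 6 libraries. The CAST level went from 6.5 CPM to 1.79 in RepB+/- and 1.78 in RepB-/-, and the 129 level from 0.494 CPM to 0.856 and 0.619. The pooled 129 share was 6.45% (3.57 to 10.6), 32.6% (23.2 to 43.2) and 25.8% (18.3 to 34.6).

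Ldoc1 gave the largest number of allelic reads. It had 13 129 reads and 282 CAST reads in WT replicate 1 and 11 and 140 in WT replicate 2. In RepB+/- the reads were 38 and 162, then 20 and 44, and in RepB-/- they were 66 and 189, then 40 and 96. The mutants were below wild type in CAST CPM and above it in 129 CPM, and the first difference was the larger. The CAST means of wild type, RepB+/- and RepB-/- were 13.2, 5.68 and 5.45 CPM, against 0.801, 1.96 and 2.05 CPM from 129. The pooled 129 share was 5.38% (3.48 to 7.9), 22.0% (17.1 to 27.5) and 27.1% (22.8 to 31.8).

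Dmrtc1b had few allelic reads. The 129 and CAST reads were 2 and 48 and then 1 and 23 in wild type, 8 and 31 and then 4 and 4 in RepB+/-, and 3 and 31 and then 1 and 15 in RepB-/-. The pooled 129 share was 4.05% (0.844 to 11.4) in wild type, 25.5% (13.9 to 40.3) in RepB+/- and 8.0% (2.22 to 19.2) in RepB-/-. The intervals of RepB-/- and wild type overlapped, so a rise of the 129 share in RepB-/- was not detectable at this depth. Those of the 2 mutant genotypes overlapped too, at 12 and 4 reads from 129, and their difference was not tested. CAST reads went from 2.21 CPM to 0.802 and 0.877, and 129 reads from 0.094 CPM to 0.399 and 0.0746.

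**Figure D2:**
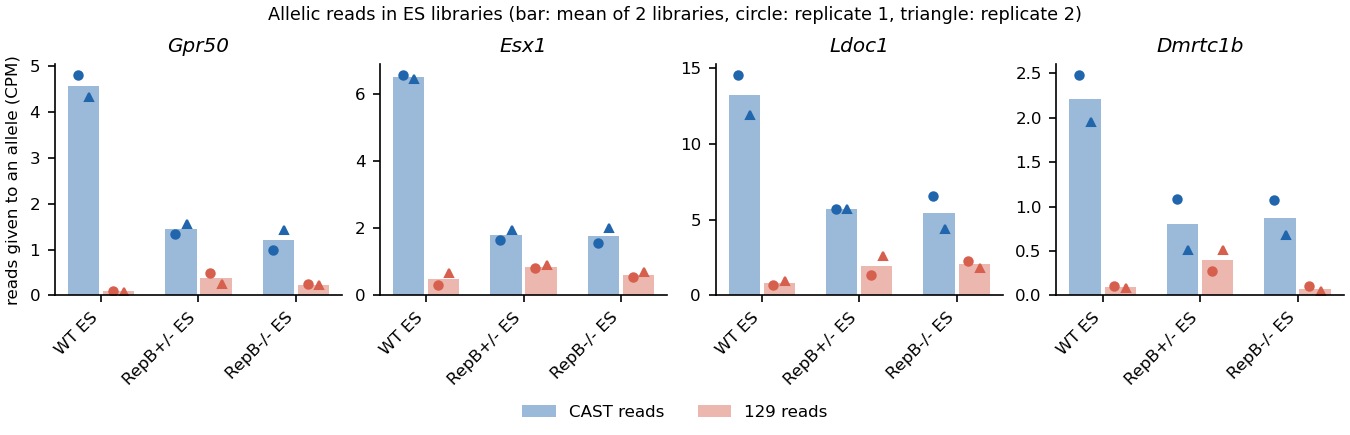
Reads given to the CAST chromosome (blue) and the 129 chromosome (red) in CPM (vertical axis) for each gene and ES genotype; bars are means of 2 libraries, circles replicate 1 and triangles replicate 2. CAST bars are lower in both RepB genotypes, from 13.2 to 5.68 and 5.45 CPM for Ldoc1, and 129 bars stay below them.

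Set against the X chromosome as a whole, the CAST loss placed the 4 genes at one end of the distribution. The choice of the genes on lower total reads favours this place, since most of their allelic reads in wild type were from CAST. Their rank is therefore a description. For 376 X-linked genes averaging at least 20 allelic reads, Xist left out, the median log2 change of CAST reads (mean CPM plus a pseudocount of 0.05) was -0.17 in RepB+/- and -0.14 in RepB-/-. The change was -1.63 and -1.87 for Gpr50, -1.83 and -1.84 for Esx1, -1.21 and -1.27 for Ldoc1, and -1.41 and -1.29 for Dmrtc1b. Between 0 and 7 of the 376 genes, the 4 included, had a lower change of CAST reads than each of them. The change of 129 reads was 1.56 and 0.99 for Gpr50, 0.74 and 0.3 for Esx1, 1.24 and 1.3 for Ldoc1, and 1.64 and -0.21 for Dmrtc1b. All these values were below the X-linked median of 129 reads, 2.42 in RepB+/- and 2.45 in RepB-/-. Over the same genes the median 129 share was 33.4% ± 3.36 (SD, n = 2) for RepB+/- and 34.8% ± 0.981 for RepB-/-, against 5.94% ± 0.897 for wild type.

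In CPM, the gain of 129 reads was 9.01% of the loss of CAST reads for Gpr50 in RepB+/- and 4.21% in RepB-/-. It was 7.7% and 2.65% for Esx1, and 15.4% and 16.1% for Ldoc1. For Dmrtc1b it was 21.6% in RepB+/-, and in RepB-/- there was no gain, the 129 level being 0.094 CPM before and 0.0746 CPM after. Allele reads are part of the reads that chose the genes, so these values have no test either. Beside the lower CAST reads of the 4 genes, CAST reads of Xist were higher. The wild-type libraries had 3.15 and 4.07 CPM of them, the RepB+/- libraries 6.04 and 6.46 CPM and the RepB-/- libraries 28.0 and 43.9 CPM. In reads these were 61 and 48, then 172 and 50, then 812 and 960. The pooled 129 share of Xist was 98.8%, 97.7% and 88.2% in the same order. The part of CAST Xist in the result was not tested.

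**Figure D3:**
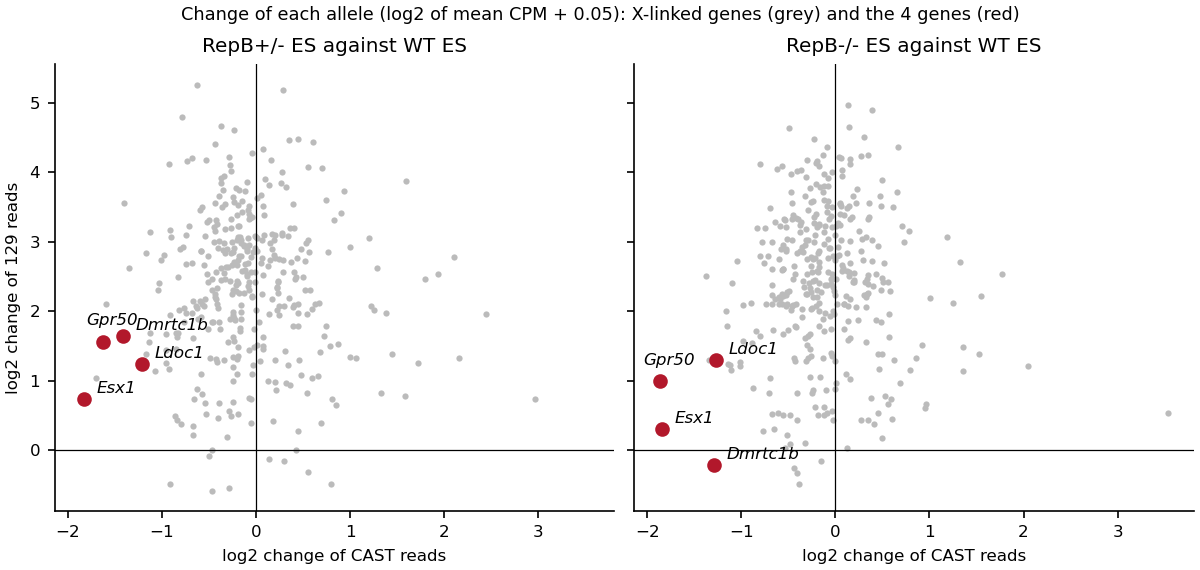
Log2 change of CAST reads (horizontal axis) and of 129 reads (vertical axis) against WT ES for 376 X-linked genes, the 4 genes among them in red and the others in grey, in RepB+/- (left) and RepB-/- (right), from mean CPM plus 0.05. The 4 genes lie at the left edge, at CAST changes from -1.21 to -1.87, with 129 changes under the X-linked medians of 2.42 and 2.45. They were chosen on lower total reads, which favours this place.

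The difference between RepB-/- and RepB+/- was not itself used to choose the genes and was tested. The choice still bears on it. A gene first picked for a low value in one of these genotypes would tend to look higher in the other. Asking for a low value in both favours genes in which the 2 look alike, so a lack of difference is partly set by the choice. Gpr50 differed by 0.03 on the log2 scale (SE 0.17, edgeR quasi-likelihood adjusted p = 0.989), with a 95% interval from -0.33 to 0.4. Esx1 differed by -0.27 (SE 0.19, edgeR adjusted p = 0.893, interval -0.69 to 0.14). Ldoc1 differed by 0.06 (SE 0.16, edgeR adjusted p = 0.972, interval -0.28 to 0.4). The estimate for Dmrtc1b was -0.45 (SE 0.33, edgeR adjusted p = 0.893, interval -1.15 to 0.24). The lowest unadjusted p of the 4 genes was 0.18, and DESeq2 did not place any of them past the threshold. In that comparison 13 of 15149 genes (0.0858%) were called, a count that was 66 without RepB+/- replicate 1, 34 without RepB+/- replicate 2, 6 and 8 without WT replicate 1 and 2, and 4 and 3 without RepB-/- replicate 1 and 2. A difference between the mutant genotypes was thus not shown for these genes, and their intervals together run from -1.15 to 0.4 on the log2 scale.

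In MEF the genes were not detected, apart from 1 read of Gpr50. WT MEF had 0 reads of each gene, which at 3 counts allows up to 0.26 CPM. RepB MEF had 0 reads of Esx1, Ldoc1 and Dmrtc1b, which allows up to 0.153 CPM, and 1 read of Gpr50, or 0.051 CPM (exact Poisson interval 0.00129 to 0.284). With the floor of 3 counts per library, the mean level in WT ES was at least 260.6-fold higher than in WT MEF for Ldoc1, at least 212.2-fold higher for Gpr50, at least 64.0-fold higher for Esx1 and at least 18.2-fold higher for Dmrtc1b. The ES and MEF libraries were scaled separately, so these folds are approximate. There was 1 library per MEF group, and both groups were at or under the floor. No fold between RepB and WT MEF or share of 129 reads can be given.

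Most genes around them were not called lower, and those that were lay beside Dmrtc1b, Ldoc1 and Esx1. For each gene the 3 nearest tested genes on each side were taken, and 23 of them are given here, with distances between the starts of the exons that the tables list. Of these, 3 rose, 4 fell and 16 were not called in RepB+/- (edgeR adjusted p of at most 0.05), where 16.0% of all genes and 37.9% of X-linked genes were called. By direction, 4 of 23 (17.4%) were lower and 3 higher, beside 4.45% of X-linked genes lower and 33.5% higher. In RepB-/- 1 rose, 4 fell and 18 were not called, beside 12.8% of all genes and 36.7% of X-linked genes. Here 17.4% were lower and 4.35% higher, beside 5.16% and 31.5% of X-linked genes. Of the 4 lower neighbours, Dmrtc1a and Gm9112 may share reads with Dmrtc1b, and whether these shares differ from those of the chromosome was not tested. The median log2 fold change of the neighbours was 0.2 and 0.07. The count of 7 called neighbours in RepB+/- was 2 without WT replicate 1 or without WT replicate 2, and the count of 5 in RepB-/- was 1 without WT replicate 1, without WT replicate 2 or without RepB-/- replicate 2.

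Beside Gpr50, 0 of 6 neighbours were called by edgeR in either genotype and 0 by DESeq2, while 2 in RepB+/- and 3 in RepB-/- had an unadjusted edgeR p under 0.05. With 5 neighbours on each side, edgeR called 1 of 10 higher in RepB+/-, and 1 higher and 1 lower in RepB-/-. Hmgb3, a chromatin protein of the HMG box family 107.8 kb away, had a log2 fold change of 0.75 (SE 0.25, edgeR adjusted p = 0.051) in RepB+/-. Vma21, an assembly factor of the proton pump of lysosomes 144.6 kb away, had 0.42 (SE 0.14, edgeR adjusted p = 0.0503) in RepB-/-. Cd99l2, a cell surface glycoprotein 243.6 kb away, had 0.13 (SE 0.11) and 0.15 (SE 0.1). Its 129 share was 27.5% for RepB+/- and 31.3% for RepB-/-, against 5.57% for wild type, so reads from the 129 chromosome were more common for this gene also.

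Beside Esx1, Nrk was the one neighbour called. This kinase gene, known from the placenta and 1799.0 kb away, fell by 0.5 on the log2 scale (SE 0.12, edgeR adjusted p = 0.0136) and by 0.41 (SE 0.12, adjusted p = 0.0384) in the 2 mutant genotypes. Both calls were lost without WT replicate 1 or 2, and the call in RepB-/- was also lost under upper-quartile scaling and without either RepB-/- library. The 129 share of Nrk was 3.69%, 21.5% and 22.5% in wild type, RepB+/- and RepB-/-. Mum1l1, next to Nrk, had log2 fold changes of -0.03 (SE 0.11) and -0.1 (SE 0.11), with 129 shares of 2.06%, 19.4% and 19.1%.

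Beside Ldoc1 the neighbours moved in both directions. Mcf2, a guanine nucleotide exchange factor 1653.7 kb away, rose by 2.0 on the log2 scale (SE 0.26, edgeR adjusted p = 0.000141) and by 1.57 (SE 0.25, adjusted p = 0.000877), and lost neither call under the alternatives run. Sox3, a transcription factor of neural progenitors, rose in RepB+/- by 0.96 (SE 0.3, edgeR adjusted p = 0.0387) and had -0.19 (SE 0.3) in RepB-/-, a difference between the genotypes of -1.15 (SE 0.28) that was not called (adjusted p = 0.234). The call in RepB+/- was lost without any of 5 of the 6 libraries, RepB+/- replicate 1 being the exception. 1700019B21Rik was called higher in RepB+/- (4.06, SE 1.03, edgeR adjusted p = 0.0153), a call lost with DESeq2 and without either WT library. On the far side, 3830417A13Rik fell by 0.62 (SE 0.16, edgeR adjusted p = 0.0168) and by 0.5 (SE 0.16, adjusted p = 0.0468), the first lost without WT replicate 1 and the second without either WT library, without RepB-/- replicate 2 and under upper-quartile scaling.

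Beside Dmrtc1b, the nearest tested gene on each side fell, and the other 4 of 6 neighbours were not called. Dmrtc1a, 195.3 kb away and with the near-identical start region, had 8.25 and 7.54 CPM in wild type, 3.75 and 4.26 CPM in RepB+/-, and 5.14 and 3.06 CPM in RepB-/-. Its mutant libraries lay below both wild-type libraries, and it fell by 1.01 (SE 0.26, edgeR adjusted p = 0.0164) and by 0.93 (SE 0.24, adjusted p = 0.0198) on the log2 scale. Gm9112, whose listed exon starts 0.993 kb before that of Dmrtc1b on the opposite strand, fell by 1.18 (SE 0.3, edgeR adjusted p = 0.0149) and by 0.99 (SE 0.28, adjusted p = 0.0268). The strand setting of the counting is not given in the sources used here, so reads of Gm9112 and Dmrtc1b may not be separable where they overlap. All 4 calls were lost without WT replicate 1 or WT replicate 2, those in RepB-/- also without RepB-/- replicate 2, and that of Dmrtc1a in RepB+/- without RepB+/- replicate 1. The 129 share of Gm9112 was 2.31%, 26.0% and 16.3% in wild type, RepB+/- and RepB-/-. Phka1 and Hdac8, the next genes on that side, had log2 fold changes of 0.17 and 0.42 in RepB+/- and of 0.0 and 0.19 in RepB-/-, none called. On the other side, beyond Dmrtc1a, 1700011M02Rik had -0.57 and -0.48 and Gm5126 had 0.6 and 0.84, none called.

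**Figure D4:**
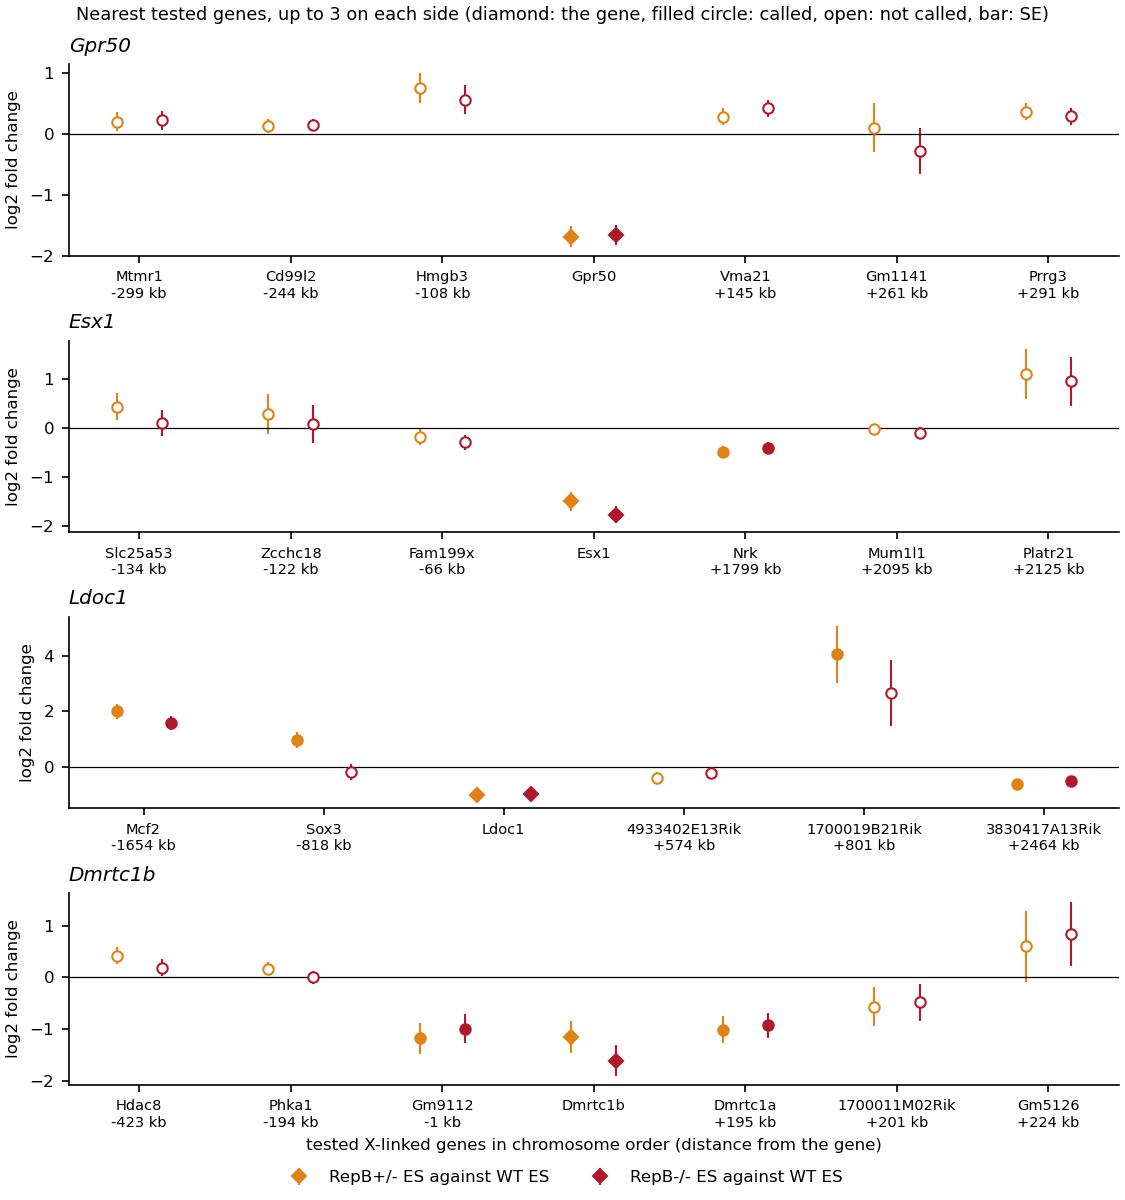
Log2 fold change against WT ES (vertical axis, bars SE) of each gene (diamond) and its nearest tested neighbours, up to 3 on each side (circles, filled where called, distance in kb under the name), for RepB+/- (orange) and RepB-/- (red). Gpr50 lies below 6 neighbours that were not called, while Gm9112 and Dmrtc1a lie beside Dmrtc1b at -1.18 to -0.93.

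By the number of genes called, the families of the 4 genes did not move as wholes. Gpr50 had no tested relative: the melatonin receptor genes Mtnr1a and Mtnr1b summed to at most 0.517 CPM in an ES library, and Mtnr1b had 0 reads in all of them. Over all genes tested 6.84% were called lower in RepB+/- and 5.49% in RepB-/-, and 9.12% and 7.27% higher, while over X-linked genes 4.45% and 5.16% were lower; with families this small, 1 call is already above such shares. Of 7 other tested DMRT genes, 1 fell (Dmrtc1a), 1 rose and 5 were not called in each genotype. The one that rose was Dmrt1, by 1.24 (SE 0.31, edgeR adjusted p = 0.0142) and by 1.07 (SE 0.3, adjusted p = 0.028) on the log2 scale, calls lost without either WT library and, in RepB-/-, also with DESeq2 and without either RepB-/- library.

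Of 10 other genes derived from sushi-ichi retrotransposons, 2 fell in RepB+/- and 1 in RepB-/-, and the rest were not called. Peg10, an imprinted gene needed for the placenta, had 5411.2 and 5693.2 CPM in wild type, 3055.7 and 3494.6 CPM in RepB+/-, and 3172.6 and 2968.2 CPM in RepB-/-. It fell by 0.76 (SE 0.19, edgeR adjusted p = 0.0131) and by 0.85 (SE 0.19, adjusted p = 0.00742) on the log2 scale, calls lost without either WT library and, in RepB-/-, without either RepB-/- library. Cxx1b fell by 0.42 in RepB+/- (SE 0.12, edgeR adjusted p = 0.0326) and had -0.38 (SE 0.12, adjusted p = 0.051) in RepB-/-. Its call was lost under upper-quartile scaling and without any 1 WT or RepB+/- library. The median log2 fold change of the 10 genes was -0.04 and -0.2.

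Of 7 other tested X-linked paired-like homeobox genes, 3 fell and 4 were not called in each genotype. The 3 were Rhox4g, Rhox6 and Rhox9 of the reproductive homeobox cluster, which is expressed in placenta and gonads. Rhox9 had 128.2 and 132.1 CPM in wild type and between 56.4 and 90.2 CPM in the mutants, and fell by 0.79 (SE 0.16, edgeR adjusted p = 0.00384) and by 0.82 (SE 0.16, adjusted p = 0.00272). Rhox6 fell by 0.67 (SE 0.16, edgeR adjusted p = 0.0101) and by 0.58 (SE 0.16, adjusted p = 0.0218), both lost without WT replicate 1 and the second also without WT replicate 2 or RepB-/- replicate 2. Rhox4g, at 2.46 CPM or less, has near-identical copies in the cluster, which makes its counts uncertain. The median of the 7 genes was 0.01 in RepB+/- and 0.2 in RepB-/-. It rests on scarce genes, since the 4 that were not called had 3.35 CPM or less in every ES library. The summed level of the listed genes without Esx1, most of it Rhox6 and Rhox9, was lower in the mutants. It was 253.5 and 246.7 CPM in wild type, 157.5 and 146.0 CPM in RepB+/-, and 190.3 and 121.8 CPM in RepB-/-.

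Markers of cell types moved beside the 4 genes. Of 20 tested placenta and trophoblast genes, 16 fell, 1 rose and 3 were not called in RepB+/-, with a median log2 fold change of -0.79. In RepB-/- 13 fell and 7 were not called, with a median of -0.7. Over all genes tested, 6.84% and 5.49% were called lower and the medians were 0.02 and 0.01. The count in RepB+/- was 10 without WT replicate 1 and 10 without WT replicate 2, and the count in RepB-/- was 7 without RepB-/- replicate 2. Several genes of this list, Hand1, Krt8, Krt18, Gata3, Cdkn1c and Peg10 among them, are also expressed outside the placenta.

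Phlda2, an imprinted growth regulator of the placenta, had 17.8 and 20.3 CPM in wild type, 5.44 and 5.04 CPM in RepB+/-, and 5.35 and 5.25 CPM in RepB-/-. The mutant libraries lay far below the wild-type ones, and it fell by 1.84 on the log2 scale in each genotype (SE 0.18 and 0.17, edgeR adjusted p = 1.88e-05 and 1.25e-05). Gata3, a trophoblast transcription factor, fell by 1.18 (SE 0.12, edgeR adjusted p = 1.88e-05) and by 1.15 (SE 0.11, adjusted p = 1.66e-05). Hand1, needed for giant cells and heart, fell by 1.09 (SE 0.13, edgeR adjusted p = 7.31e-05) and by 0.99 (SE 0.13, adjusted p = 0.000126). Dlx3, a homeobox gene of the labyrinth, fell by 1.09 (SE 0.13, edgeR adjusted p = 7.31e-05) and by 1.08 (SE 0.12, adjusted p = 5.75e-05). Eomes, a gene of trophoblast stem cells and early mesendoderm, rose in RepB+/- by 1.82 (SE 0.32, edgeR adjusted p = 0.00161) and was not called in RepB-/-, at 1.0 (SE 0.33, adjusted p = 0.0558). Cdx2, the trophectoderm factor, was not called, at -0.35 (SE 0.23) and -0.56 (SE 0.22).

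The summed level of the 21 listed placenta and trophoblast genes lay between 7992.2 and 8483.0 CPM in wild type, between 4633.6 and 5100.5 in RepB+/- and between 4512.1 and 4907.1 in RepB-/-. Without Peg10, which made up most of it, the sums were 2581.0 to 2789.8, 1577.9 to 1605.9 and 1543.9 to 1734.5 CPM. Among the defining genes, Prl3d1 had 0 reads in both wild-type libraries and at most 0.0914 CPM in a mutant one, and Elf5 had 0 reads in RepB+/- replicate 2. In MEF, where the 4 genes were not detected, the sums were 289.4 and 240.5 CPM. The part of a change in the share of such cells in the result was not tested.

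**Figure D5:**
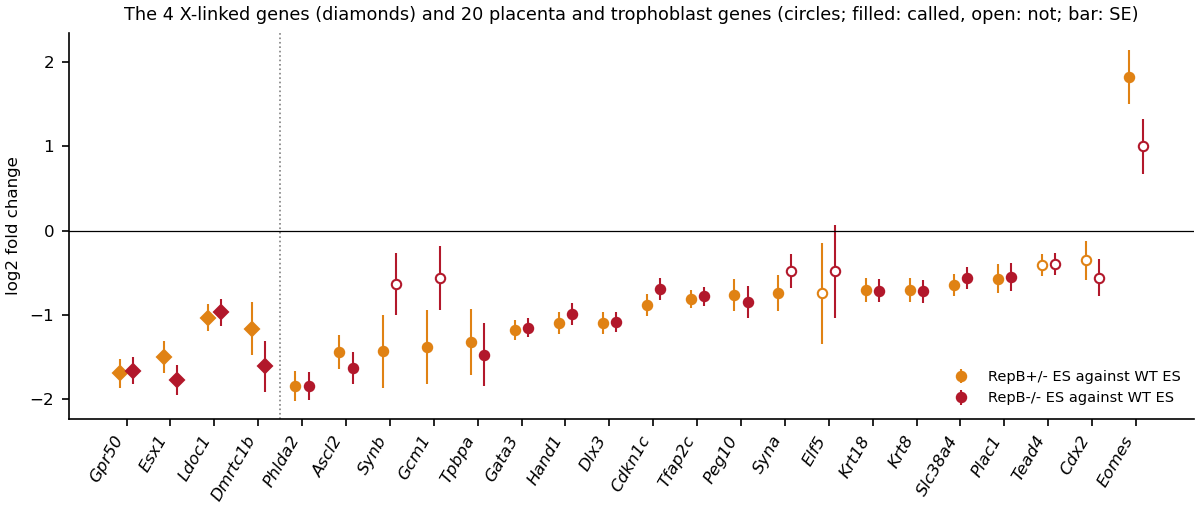
Log2 fold change against WT ES (vertical axis, bars SE) of the 4 X-linked genes (diamonds) and of 20 placenta and trophoblast genes (circles, filled where called), for RepB+/- (orange) and RepB-/- (red). Of the 20 genes 16 were called lower in RepB+/- and 13 in RepB-/-, and Eomes was called higher in RepB+/-.

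The counts of the marker lists that follow stand beside 6.84% (RepB+/-) and 5.49% (RepB-/-) of all genes called lower and 9.12% and 7.27% called higher. Of 8 cardiac muscle genes, 6 fell in RepB+/- and 6 in RepB-/-, and their summed level went from 503.2 to 553.7 CPM down to 254.0 to 266.5 in RepB+/- and 200.6 to 209.9 in RepB-/-. Myh7, a myosin heavy chain of the ventricle, fell by 1.4 (SE 0.11, edgeR adjusted p = 3.83e-06) and by 2.21 (SE 0.11, adjusted p = 3.13e-08) on the log2 scale. All 6 pluripotent cell genes rose in both genotypes, from a sum of 109.9 to 136.9 CPM in wild type to 330.2 to 439.5 in RepB+/- and 291.1 to 316.5 in RepB-/-. Nanog, a core factor of the undifferentiated state, rose by 1.65 (SE 0.16, edgeR adjusted p = 1.67e-05) and by 1.36 (SE 0.15, adjusted p = 5.55e-05). Of 8 endoderm and yolk sac genes, 6 rose in RepB+/- and 3 in RepB-/-, the others not being called, and the sums were 426.7 to 441.6, 835.7 to 898.5 and 710.4 to 770.2 CPM. Afp, the fetal albumin-like protein of yolk sac and liver, rose by 1.67 (SE 0.12, edgeR adjusted p = 3.83e-06) and by 1.4 (SE 0.12, adjusted p = 8.51e-06). The list for hypothalamus and tanycytes, the known site of Gpr50, added up to 7.27 to 9.07 CPM for wild type, 3.88 to 4.42 CPM for RepB+/- and 3.15 to 3.73 CPM for RepB-/-, with Otp at no more than 0.0516 CPM. Of its 4 tested genes 1 fell in RepB+/- and 3 in RepB-/-, and Rax, an eye field and hypothalamus factor, was called in both on few reads. Its reads numbered 15 and 19 for wild type, 4 and 1 for RepB+/- and 6 and 0 for RepB-/-. Both calls were lost with DESeq2 and without WT replicate 2, the first also without RepB+/- replicate 1 and the second without RepB-/- replicate 2. Germ cell and testis genes, the other known site of Esx1, were not called lower: 2 of 5 rose in RepB+/- and 1 in RepB-/-, and the others were not called. The part of any of these cell types in the result was not tested.

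Of 8 neural genes, 3 rose and 3 fell in RepB+/-, and 2 rose and 3 fell in RepB-/-. Of 6 fibroblast genes 2 rose in each genotype, and their sums overlapped between wild type (19908.2 to 25197.1 CPM) and both mutants (16252.2 to 31196.2 and 19151.5 to 22410.2). In MEF, as their label says, fibroblast genes were high (38502.3 and 32138.8 CPM in sum) and the pluripotent, cardiac and endoderm lists each summed to less than 1 CPM. Endothelium had 1 gene of 4 higher and 1 lower in RepB+/- and 2 lower in RepB-/-, and blood had 1 of 5 higher in each.

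As a description over the 6 ES libraries, the log2 levels of the 4 genes correlated with each other at Pearson r from 0.923 to 0.959. The 6 points share the step between wild type and mutants on which the genes were chosen, so no p-value is given. The genes most like Gpr50 were Prpf3 (r = 0.997), Dlx3 (0.997) and Slc25a10 (0.996), and on the X chromosome Asb12 (0.987), Cxx1b (0.987) and AU015836 (0.977). Those most like Esx1 were Ring1 (0.999), Card10 (0.999) and Camsap3 (0.998), and on the X chromosome AU015836 (0.972), Pcdh11x (0.963) and Gpr50 (0.959). At r over 0.9, a lower bar than the values listed, 732 (6.4%) of 11446 genes with at least 5 CPM correlated with Gpr50 and 767 (6.7%) with Esx1. Among 400 X-linked genes these numbered 17 (4.25%) and 14 (3.5%).

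Ldoc1 was most like Bmyc (r = 0.997), Gjb5 (0.996) and the keratin gene Krt8 (0.992), and on the X chromosome like Dmrtc1a (0.988), Rhox9 (0.984) and AU015836 (0.978). Dmrtc1b was most like Armcx1 (0.991), itself X-linked, Insig1 (0.99) and Lzic (0.989), then on the X chromosome AU015836 (0.98) and Ldoc1 (0.953). AU015836 thus appeared among the 3 most similar X-linked genes of each of the 4. At r over 0.9, 586 (5.12%) of 11446 genes correlated with Ldoc1 and 320 (2.8%) of 11447 with Dmrtc1b. On the X chromosome these numbered 19 (4.75%) of 400 and 15 (3.74%) of 401. Fold changes of the similar genes were often smaller, such as -0.34 in RepB+/- and -0.3 in RepB-/- for Prpf3, since a correlation reads the order and spacing of libraries and not the size of the change.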

How the data were processed

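RNA-seq counts of 8 libraries were used. Per the file headers, the authors' 3 deposited tables hold whole-number counts per gene in the column layout of featureCounts with mm9 positions: all reads, 129 (headed mus) and CAST reads. Per the submitters' processing notes the tools of the series included Novoalign, TopHat, SAMtools and featureCounts. Strand and multimapping settings are not given in the sources used here, and reads over strain variants can map less well for the allele unlike the reference. The tables held 0 columns of other samples.

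The 6 ES libraries were fitted together in edgeR 4.0.16 (R 4.3.3): filterByExpr (minimum count 10, minimum total 15, leaving 15149 genes), TMM scaling, genotype as the only term, and the quasi-likelihood F-test with Benjamini-Hochberg adjustment over all genes tested, called at 0.05. The SE of a log2 fold change was derived from this test, as the size of the change divided by the square root of F. The biological coefficient of variation was 9.49%. The fit was tested on simulated counts. DESeq2 1.42.0, upper-quartile scaling, no filter, a replicate block, leaving out each library and 5 neighbours a side were alternatives. Printed CPM are TMM-scaled, with ES and MEF libraries scaled separately. Intervals are 95%, by scipy 1.17.1. Those of allele shares (Clopper-Pearson) and of single counts (Poisson) cover counting error only. A count of 0 used a floor of 3 counts per library, which also covers counting error only. Intervals of log2 differences between the mutant genotypes were built on the SE of the edgeR test, which takes in the spread between libraries. Allele changes used mean CPM plus 0.05 for genes averaging at least 20 allelic reads.

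Named were the 4 genes, the 3 nearest tested genes on each side (1 is not reported here and enters no count of neighbours), tested family members, up to 4 called genes per marker list with the lowest adjusted p, the 3 most correlated genes and X-linked genes (mean of at least 5 CPM), and Xist. Other names were chosen after their values were seen. The genes and all lists were chosen with earlier results of these data known. Promoter sequences are RefSeq's on GRCm38.p6, whose positions were not converted to or from mm9.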

Additional observations from a re-analysis of the deposited data

How the results depend on the processing

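Scaling, the test, the filter and the block left the direction of each of the 4 genes against wild type unchanged, with log2 fold changes of -1.73 to -1.62 for Gpr50, -1.79 to -1.44 for Esx1, -1.05 to -0.93 for Ldoc1 and -1.63 to -1.1 for Dmrtc1b. Leaving out each library gave -2.11 to -1.48 (RepB+/-) and -1.83 to -1.52 (RepB-/-) for Gpr50, -1.62 to -1.4 and -1.89 to -1.67 for Esx1, -1.1 to -0.98 and -1.33 to -0.7 for Ldoc1, and -1.31 to -0.99 and -2.01 to -1.33 for Dmrtc1b. Between RepB-/- and RepB+/- the range was -0.18 to 0.45 for Gpr50, -0.36 to -0.19 for Esx1, -0.29 to 0.34 for Ldoc1 and -0.84 to -0.17 for Dmrtc1b, none called. Here Gpr50 reversed to -0.18 without RepB+/- replicate 2 and to -0.13 without RepB-/- replicate 1, and Ldoc1 to -0.29 without RepB-/- replicate 1; the cause was not tested. X-linked genes called lower numbered 10 to 24 in RepB+/- and 9 to 38 in RepB-/- with a library left out, called neighbours 2 to 9 and 1 to 6, and placenta genes called lower 10 to 16 and 7 to 15, with fewer samples in each fit. With 5 neighbours on each side 12 of 39 were called in RepB+/- (8 higher, 4 lower) and 11 of 39 in RepB-/- (5 and 6). The placenta alternatives, and those of the family and other marker genes, were chosen after seeing the data. Same-numbered libraries deviated together at r of 0.108, 0.07 and 0.186, so the numbers were not read as pairs; with the replicate block 35 and 42 X-linked genes were called lower, 11 neighbours were called in RepB+/- against 7, and 3619, 3160 and 80 genes were called in RepB+/-, RepB-/- and between them, against 2418, 1933 and 13. The last was 30 with DESeq2 and 124 with no filter. Scaling MEF libraries by total counts gave no value, since no fold was computed there. Allele values rest on few reads, 8 in all for Dmrtc1b in RepB+/- replicate 2.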
